A study of Mus musculus with 586 samples.

Results

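The 42 genes described here run or brake the cell cycle, and they were chosen by name from the 23361 genes listed in all 18 tables of a Geo-seq series of mouse embryos. They are 5 G1 cyclins and kinases, 4 genes of the passage from G1 to S, 12 S phase genes, 17 mitosis genes and 4 inhibitors, and all 42 were listed in every table. Geo-seq sequences RNA from small groups of cells cut by laser from known positions of a cryosection. The embryos were C57BL/6, with no other allele, treatment or sex named in the labels, and the tissue was embedded in OCT before sectioning. Values were available for 473 of 586 samples: 22 libraries from 2 embryos at E5.5, 22 from 2 at E6.0, 109 from 6 at E6.5, 101 from 2 at E7.0 and 219 from 6 at E7.5.

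The labels give a region code and a section number for each library. The labels spell out neither, and the published atlas was followed here. Anterior epiblast is A and posterior epiblast P, L is left and R right, the E codes with A or P are endoderm of the anterior or posterior side, mesoderm is M (MA in front, MP behind), visceral endoderm is VE, and sections are numbered from distal to proximal. The embryo was the replicate. The p-values rest on the spread between embryos, which limma moderates toward that of genes of similar level. Regions were compared within the same section of the same embryo as differences of log2(FPKM + 1), which understate the change of low genes. They were tested with limma over all genes, with p adjusted by the Benjamini-Hochberg method and a threshold of 0.05 for a call. FPKM as deposited, which counts fragments per length of transcript and relative to library depth, is the first scale given. Because the level of most genes differed between libraries, each comparison was repeated with library medians made equal, called equal medians below.

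Progress through the cell cycle is driven by cyclins that switch on their kinases in turn, D cyclins with Cdk4 and Cdk6 in G1, E and A cyclins with Cdk2 around DNA synthesis, and A and B cyclins with Cdk1 at mitosis. S phase genes are switched on through E2F factors, mitosis genes are controlled by MuvB complexes at elements called CHR and by NF-Y at CCAAT boxes, and Cdkn1a, which blocks the kinases, is a classic p53 target. The mouse epiblast is known for very fast division during gastrulation, with short gap phases.

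These elements can be seen in the RefSeq promoters of the members (GRCm38). They are shown because their counts differ between the roles by which the results below are ordered. Each line gives the 100 bases before the start of transcription, 5′ to 3′ on the gene's strand, with the searched letters in capitals. In Plk1 (chr7:122159335-122159434, plus strand), Cdc20 (chr4:118437344-118437443, minus strand) and Top2a (chr11:99024190-99024289, minus strand), all mitosis genes, capitals mark CHR and CCAAT on either strand. In Mcm6 (chr1:128359706-128359805, minus strand), part of the replicative helicase, they mark an E2F match and CCAAT, and in Cdkn1a (chr17:29090879-29090978, plus strand) the p53 match.
Plk1: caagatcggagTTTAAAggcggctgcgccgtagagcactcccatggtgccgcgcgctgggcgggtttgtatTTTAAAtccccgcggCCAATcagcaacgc
Cdc20: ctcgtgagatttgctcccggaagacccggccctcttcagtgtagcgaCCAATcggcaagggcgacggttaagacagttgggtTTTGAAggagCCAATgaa
Top2a: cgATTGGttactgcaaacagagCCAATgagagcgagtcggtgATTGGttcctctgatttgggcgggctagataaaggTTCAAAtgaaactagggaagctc
Mcm6: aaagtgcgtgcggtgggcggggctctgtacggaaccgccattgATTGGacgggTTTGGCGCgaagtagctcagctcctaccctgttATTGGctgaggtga
Cdkn1a: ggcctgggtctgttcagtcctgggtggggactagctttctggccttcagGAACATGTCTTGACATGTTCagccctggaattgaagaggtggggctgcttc

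The table of promoters held 38 promoters of 34 members, and 150 bases of each, 100 before to 50 after the start, were searched on both strands. CHR (TTTGAA or TTTAAA) occurred in 10 of 14 promoters of mitosis genes (71.4%) and in 2 of 12 of S phase genes (16.7%), against 12.8% of 32851 promoters in the table. CCAAT occurred in 10 of 14 promoters of mitosis genes and also in 8 of 12 of S phase genes (66.7%), against 23.4% of all. An E2F match (TTTCCCGC, TTTCGCGC, TTTGCCGC or TTTGGCGC) occurred in 4 of 12 promoters of S phase genes, those of Cdt1, Mcm3, Mcm6 and Mcm7, in 1 of 3 of the passage to S (Cdc25a) and in 0 of 14 of mitosis genes, against 1.27% of all. The p53 consensus of 20 bases, with at most 1 mismatch, occurred in 9 of 32851 promoters (0.0274%), and among the members in 1 of the 2 promoters of Cdkn1a. None of the CHR, CCAAT and E2F motifs contains another. The p53 consensus can contain the letters of CHR, but the match in Cdkn1a did not. A match is a description of letters, not a site that was shown to be used.

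The number of genes reaching 1 FPKM was 2683 to 11319 per library (median 8949), and 52 of the 473 listed fewer than 6000. Rough depth, as the median library of an embryo, was 2.098 to 10.72 M reads, and 4 libraries had over 50% of their FPKM in 1 gene. The labelled regions were checked against marker lists. The 12 visceral endoderm markers summed to 1008 to 5332 FPKM over the endoderm of the 6 embryos that had it, and to 38.1 to 331 in A of the same stages. The 8 epiblast markers summed to 34.9 to 196 FPKM in endoderm and to 126 to 1096 in A of the same stages. Mesoderm was not set apart from P by the 11 mesoderm markers. At E7.0 they summed to 210 to 698 FPKM in mesoderm and 226 to 994 in P. At E7.5 they summed to 133 to 402.5 FPKM in mesoderm and 364 to 1075 in P. At E5.5 the 2 epiblast regions did not stand clear of visceral endoderm: its markers summed to 401 to 654 FPKM in A and 457 to 603 in P, and the epiblast markers to 298 to 475 and 425 to 490. At E6.0 the visceral endoderm markers summed to 145 to 471 in A. The 7 markers of decidua and blood, which no label names, summed to 158 to 285 FPKM in endoderm at E6.5 against 5.29 to 106 in A, to 3084 to 12090 at E7.0 against 131 to 195, and to 1168 to 9585 at E7.5 against 39.1 to 1100. Their part in the results was not tested. In pooled cells, fewer cells of a type and less RNA per cell cannot be told apart.

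The cell cycle genes ranged widely in level. Over the 473 libraries the highest mean FPKM belonged to Cdk4, the G1 kinase (286), and Ube2c, a ubiquitin-conjugating enzyme that works with the anaphase-promoting complex (232). Next were Pcna, the sliding clamp of DNA polymerase (192), and Birc5, a subunit of the chromosomal passenger complex (165). Cdkn2c, an inhibitor of Cdk4 and Cdk6, was at the low end, with a mean of 0.231 FPKM and 81.8% of libraries at 0, and Cdk6 itself had a mean of 0.755 FPKM. Cdc25b, a phosphatase that switches on Cdk1, had a mean of 1.27 FPKM. Within an embryo, most members varied less from library to library than the median gene with a mean of at least 5 FPKM. The standard deviation of log2 values with equal medians was 0.29 for Birc5, 0.33 for Cdk4 and Mcm7 and 0.34 for Ube2c, against a median of 0.57 over 5378 genes with a mean of at least 5 FPKM. It was highest for Cdkn1a (1.24) and Ccnd2 (1.01), which encodes cyclin D2, and 11 of the 42 members lay above the median of those genes. Low levels add counting noise to this spread, and the genes were not matched by level.

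**Figure D1:**
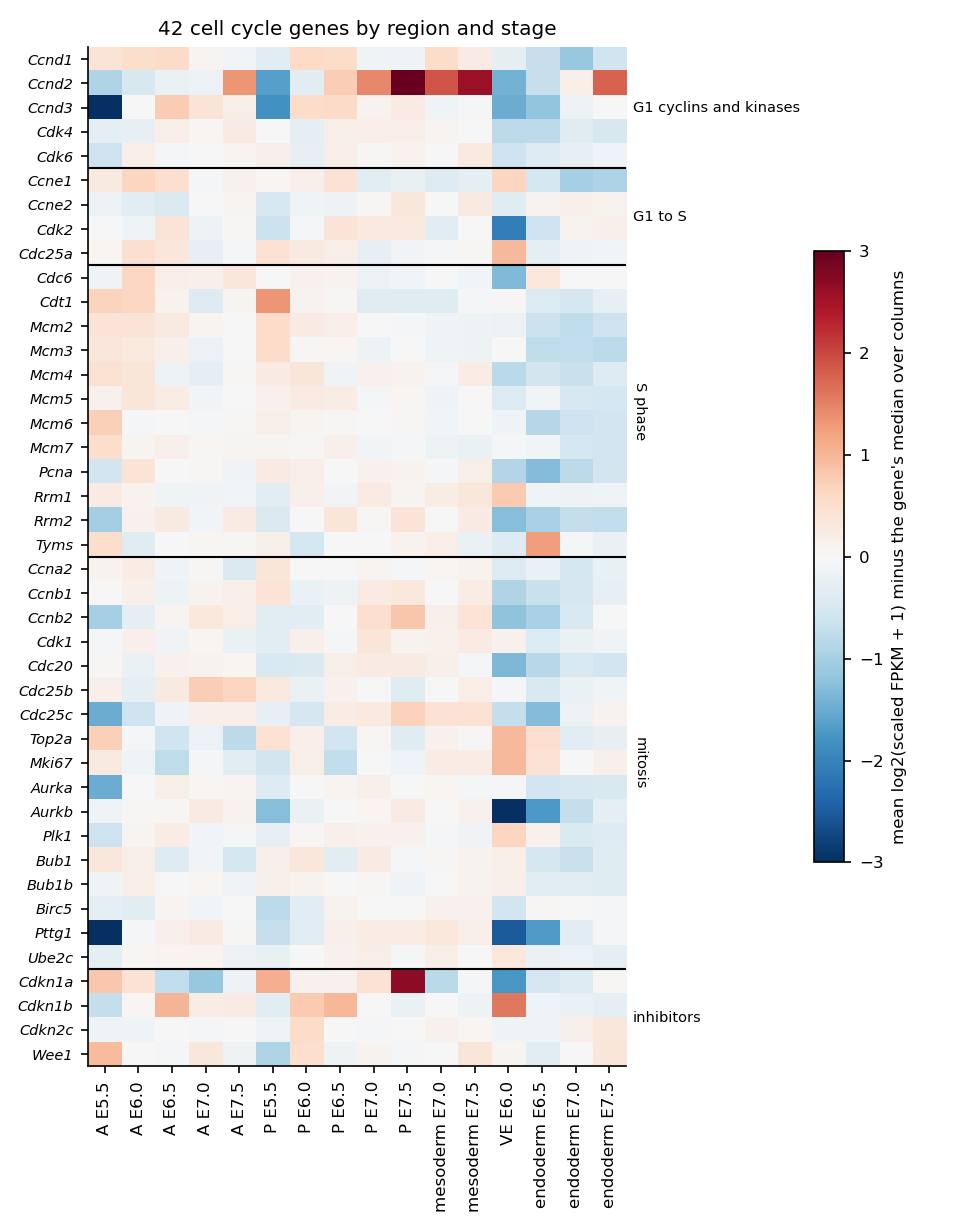
Levels of the 42 cell cycle genes (lines, ordered by role) in 16 combinations of region and stage (columns). Colour is the mean log2(FPKM + 1) with equal medians, minus the gene's median over the columns. Ccnd2 and Cdkn1a are darkest in P at E7.5, and the endoderm columns are pale blue for most S phase genes.

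Along the anterior to posterior axis of the epiblast, Ccnd2 was the member that was higher in P at E6.5, and it was joined at E7.5 by Cdkn1a. At E6.5, with 6 embryos, Ccnd2 was at 0.849 FPKM in the lowest embryo, 2.80 in the median and 5.06 in the highest in A, and at 3.16, 8.83 and 11.7 in P. The ranges overlapped, but P was above A in 6 of 6 embryos. The difference was 0.98 ± 0.17 (SE) on the log2 scale, with an adjusted p of 0.0072 in limma. With equal medians it was 0.94, with an adjusted p of 0.056, and without E6.5 embryo 2 it was 0.93, with an adjusted p of 0.050, just above the threshold. Ccnd2 was the only call among 41 members tested, against 0.726% of all genes called. With equal medians 0 of 41 were called in limma, against 0.431% of all, and 3 had an unadjusted p under 0.05. Cdkn1a was higher in P in 5 of 6 embryos, by 0.92 ± 0.27, with an adjusted p of 0.22. Over all 41 members the median difference was -0.02, with 17 positive and 24 negative, and over all genes it was -0.01.

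At E7.0 only 2 embryos were available. Ccnd2 was at 1.80 and 2.28 FPKM in A and at 9.17 and 18.6 in P of the same sections. P was above A in both embryos, and the groups did not overlap. The difference was 1.68 ± 0.29, with an adjusted p of 0.0031 in limma, and 1.54 with equal medians (adjusted p 0.027). Without E7.0 embryo 2, which leaves 1 embryo at this stage, the difference was 1.13. Ccnd2 was again the only member called of 41, against 2.92% of all genes, and 2.45% with equal medians. Cdkn1a was at 0.846 and 1.48 FPKM in A and at 2.55 and 9.25 in P, which did not overlap, but its difference of 1.48 ± 0.46 had an adjusted p of 0.11.

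At E7.5, where 4 embryos had both A and P in a section, 11 of 41 members were higher in P and 1 was lower, against 13.9% of all genes called. With equal medians these were 6 and 1, against 9.37% of all. Ccnd2 was at 2.03 FPKM in the lowest embryo and 10.3 in the highest in A and at 16.7 to 53.2 in P of the same sections. Cdkn1a was at 0.879 to 18.4 FPKM in A and at 21.5 to 56.4 in P. Neither gene's groups overlapped, and P was higher in 4 of 4 embryos. The difference was 2.29 ± 0.21 for Ccnd2 (adjusted p 4.4e-07 in limma, 2.11 with equal medians) and 3.19 ± 0.33 for Cdkn1a (adjusted p 2.1e-06, 3.13 with equal medians). Cdc25b moved the other way. It was at 0.489 to 3.45 FPKM in A and 0.110 to 0.855 in P, which overlapped, and it was lower in P in 4 of 4 embryos, by 1.003 ± 0.20 (difference of -1.003, adjusted p 0.0025, -1.06 with equal medians).

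The other members called at E7.5 differed less. Cdk2 (0.62 ± 0.15), the A cyclin Ccna2 (0.63 ± 0.14), the securin gene Pttg1 (0.74 ± 0.15) and the phosphatase gene Cdc25c (0.76 ± 0.19) were higher in P in 4 of 4 embryos. They were called on both scales, with adjusted p in limma of 0.0023 to 0.011 as deposited and 0.032 to 0.042 with equal medians. Ccnb2 (1.14), Cdk1 (0.57), Pcna (0.56), Cdc20 (0.46) and Birc5 (0.45) were called only as deposited. The median over the 12 S phase genes was 0.31, with 1 called, and over the 17 mitosis genes 0.46, with 7 higher and 1 lower. With equal medians these medians were 0.07 and 0.21. Over all genes the median was 0.15 as deposited and 0.00 with equal medians. The change of P minus A from E6.5 to E7.5 passed the test in 3 members, Cdkn1a, Ccnd2 and Pttg1, against 4.03% of all genes, and with equal medians in 1, Cdkn1a, against 3.35%.

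Among further cell cycle genes listed beside the members, 5 of 29 other S phase genes and 7 of 31 other mitosis genes were higher in P at E7.5. With equal medians 2 of 30 and 0 of 31 were, with 1 mitosis gene lower. Over all genes 1193 of 11438 were called higher as deposited and 564 of 11828 with equal medians. Of 12 further p53 targets tested, 1 was called, Pmaip1, with a difference of 2.70, while 9 of the 12 had negative differences and their median was -0.10. Of 12 pocket proteins, E2F4 and other inhibitors tested, 1 was called, Cdc14b, by 0.91. Both counts of 1 of 12 stand against 13.9% of all genes called. Over all A and P libraries of E7.5 the 11 mesoderm markers summed to 364 to 1075 FPKM in P and 6.13 to 163 in A. The 7 markers of extra-embryonic ectoderm summed to 30.4 to 68.9 in P and 1.35 to 9.07 in A. Of these 5 were tested and 4 were higher in P, but a marker can pass the filter through the region where it is high. Elf5, 1 of the 7 markers, did not follow the sum, at 0 to 0.0318 FPKM in P and 0 to 0.197 in A. The part of these cells in the differences was not tested.

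The earlier stages had 2 embryos each. At E5.5, 7 of 41 members were higher in P and 1 lower, against 15.1% of all genes. With equal medians the split turned to 3 higher and 7 lower, against 16.9% of all. Of the A libraries 7 of 10 had under 6000 genes at 1 FPKM, all 5 of embryo 1 among them, against 2 of 10 of P. Without such libraries, which leaves embryo 2 alone, the split as deposited was 5 higher and 10 lower, against 30.7% of all genes called. Pttg1 was at 5.21 and 7.08 FPKM in A and at 48.9 and 48.6 in P, with no overlap, a difference of 3.25 ± 0.21 and an adjusted p of 1.9e-07 in limma (3.04 with equal medians). It was listed at 0 in 5 of 10 A libraries and 1 of 10 P libraries. Other cells' markers differed too: those of decidua and blood summed to 52.6 to 326 FPKM in A and 8.26 to 61.1 in P. Prl8a2, a decidual gene, was at 44.9 to 305 in A and 2.87 to 40.4 in P, and Pou5f1 of the epiblast at 74.3 to 81.9 in A and 116 to 163 in P. Their part in these differences was not tested. Pcna (1.17), Cdc25c (1.08) and the Cdk1 inhibitor Wee1 (-1.09) were also called on both scales, whereas Cdk4, Cdt1, Ccna2 and Ccnb1 were called only as deposited. Fitted alone, E5.5 gave 1 call, against 0.539% of all genes. At E6.0, 0 of 41 members were called in limma, with 6 at an unadjusted p under 0.05 and 2 with equal medians, against 0.0% of all genes as deposited and 0.0% with equal medians.

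**Figure D2:**
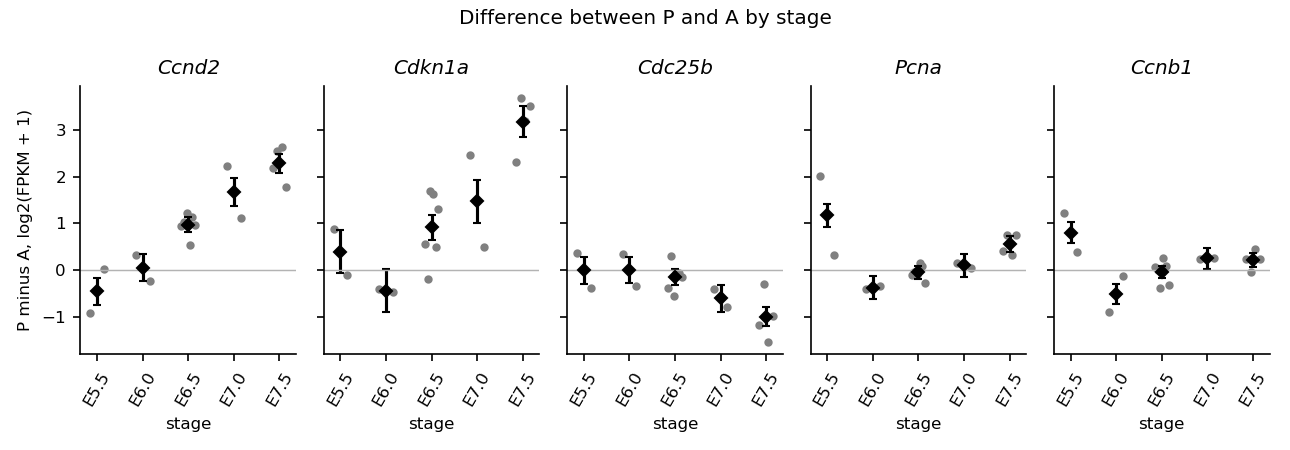
Difference P minus A of log2(FPKM + 1) by stage for Ccnd2, Cdkn1a, Cdc25b, Pcna and Ccnb1. Grey points are embryos and black points the fitted difference with its SE. Ccnd2 lies above 0 in every embryo from E6.5 on and reaches 2.29 at E7.5, Cdkn1a reaches 3.19, Cdc25b falls to -1.003, and Pcna and Ccnb1 stay near 0 from E6.5 to E7.0.

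Along the distal to proximal axis of P at E6.5, Ccnd2 and Cdkn1a rose steeply together. Slopes are given as log2 change from the most distal to the most proximal section of an embryo. In the most distal section Ccnd2 was at 0.497, 1.94 and 2.61 FPKM in the lowest, median and highest of 6 embryos, and in the most proximal section at 5.87, 22.0 and 27.3. Cdkn1a was at 0, 1.08 and 4.86 FPKM distally and at 10.2, 15.1 and 24.0 proximally. For both genes the ends did not overlap, and the proximal end was higher in 6 of 6 embryos. The slope was 3.04 ± 0.25 for Ccnd2 (adjusted p 2.3e-07 in limma, 2.60 with equal medians) and 2.95 ± 0.27 for Cdkn1a (adjusted p 1.1e-06, 2.55 with equal medians).

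Most other members also rose toward the proximal side of P on the deposited scale, as did most genes. Of 41 members 22 were called higher and 0 lower, against 21.5% of all genes called and 20.8% called higher, and the median slope was 0.59 against 0.42 over all genes. With equal medians 3 of 41 were called, all higher, against 2.71% of all genes called and 1.53% called higher, and the median slopes were 0.09 and -0.01. The third of these was Ccnb1, cyclin B1 of mitosis, which was at 24.8, 43.8 and 117 FPKM distally and 70.04, 97.7 and 132 proximally, with a slope of 1.00 ± 0.20 (adjusted p 0.0047) and of 0.47 with equal medians (adjusted p 0.041). As deposited without the filter on low values its adjusted p was 0.051. Its ends overlapped, and 5 of 6 embryos were higher proximally. Pcna was at 76.7, 156 and 329 FPKM distally and 101, 282 and 417 proximally. It was higher proximally in 6 of 6 embryos, with a slope of 0.75 ± 0.22 (adjusted p 0.026) that was 0.22 with equal medians (adjusted p 0.45). By role, 6 of 12 S phase and 10 of 17 mitosis genes rose as deposited, and 0 of 12 and 1 of 17 with equal medians. Of the 11 mesoderm markers 5 passed the filter on low values, and all 5 rose. A marker can pass that filter through the sections where it is high, so this count is a description only.

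In A at E6.5 the same 2 genes leaned the same way without passing the test. Ccnd2 was higher in the most proximal section in 5 of 6 embryos, with a slope of 1.22 ± 0.37 (adjusted p 0.64 in limma). Cdkn1a was higher in 6 of 6, with a slope of 1.47 ± 0.35 (adjusted p 0.27), and 1 embryo stood apart at 62.6 FPKM against a median of 4.81. Of 40 members tested 0 were called, with 3 at an unadjusted p under 0.05 on either scale, against 0.0737% of all genes as deposited and 0.122% with equal medians. The difference between the slopes of A and P was not tested.

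**Figure D3:**
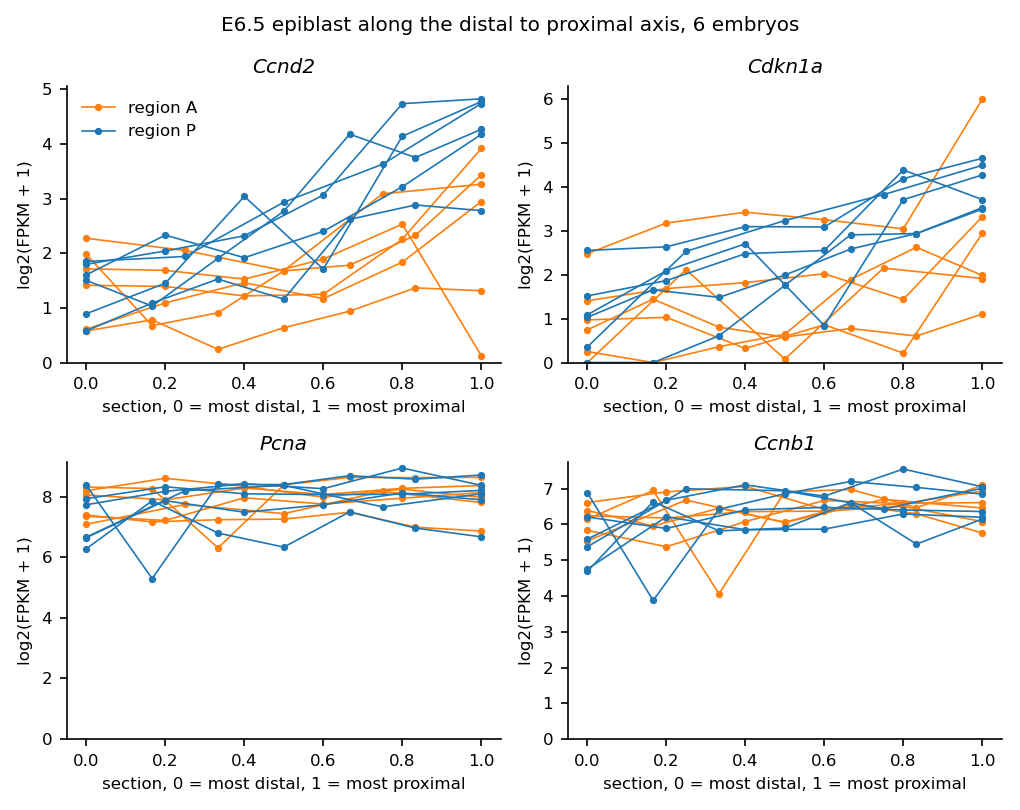
log2(FPKM + 1) of Ccnd2, Cdkn1a, Pcna and Ccnb1 against section position in the 6 embryos at E6.5, from 0 (most distal) to 1 (most proximal), with A in orange and P in blue. Ccnd2 and Cdkn1a climb in P from medians of 1.94 and 1.08 FPKM to 22.0 and 15.1, while Pcna and Ccnb1 change less.

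At later stages Ccnd2 was also high in the proximal sections of P. At E7.0 it was at 0 and 0.787 FPKM in the most distal section of P and at 17.9 and 28.0 in the most proximal. At E7.5 it was at 0.305 to 17.6 FPKM distally and at 43.5 to 82.4 proximally, higher in 4 of 4 embryos with no overlap. Cdkn1a was at 3.16 and 4.80 FPKM distally at E7.0 and at 1.62 and 10.6 proximally, higher in 1 of 2 embryos, and at E7.5 it was higher proximally in 3 of 4. These ends were not tested. In mesoderm, over 4 embryos at E7.0 and E7.5, Ccnd2 rose toward proximal in 4 of 4 embryos with a slope of 2.49 ± 0.45 (adjusted p 0.00093 in limma). It was the only call of 41, against 3.82% of all genes, and with equal medians the slope was 2.08 with an adjusted p of 0.091 and 0 members were called, with 2 at an unadjusted p under 0.05, against 0.557% of all. This slope depended on single embryos: leaving out 1 embryo gave 0 to 28 calls, the 28 without E7.0 embryo 2, where 48.2% of all genes were called. The adjusted p of Ccnd2 was 0.050, just above the threshold, without E7.5 embryo 5 and 0.31 without E7.5 embryo 6.

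In endoderm, a D cyclin changed along the axis. Ccnd1, cyclin D1, fell toward proximal in 6 of 6 embryos, with a slope of -1.86 ± 0.43 (adjusted p 0.00021 in limma) and of -2.77 with equal medians (adjusted p 0.0045). As deposited without the filter on low values the call was lost (adjusted p 0.063). In the epiblast at E6.5 Ccnd1 was higher in the most proximal section of P in 6 of 6 embryos. Its median there was 30.8 FPKM, against 21.8 in the most distal section. In A it was higher proximally in 1 of 6. Pttg1 rose in 6 of 6, by 1.74 ± 0.47, and Cdk2 in 4 of 6, by 1.10 ± 0.43, and both were called only on the deposited scale. The slope of Pttg1 turned to -0.11 with equal medians once libraries of under 6000 genes were left out. Together 2 of 39 members rose and 1 fell, against 20.9% of all genes called, and with equal medians 0 of 40 rose and 1 fell, against 10.7%. Leaving out E7.0 embryo 1 or E7.5 embryo 6 left 1 call, against 11.0% and 7.5% of all genes, and leaving out E6.5 embryo 5 gave 6, against 30.1%.

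Endoderm held lower levels of nearly every cell cycle gene than the epiblast of the same sections. Over 6 embryos, a pair from each stage from E6.5 on, 37 of 40 members tested were lower in endoderm and 0 higher, against 77.8% of all genes called and 66.7% called lower. The median difference was -1.20, against -0.53 over all genes. With equal medians 26 of 40 were lower and 0 higher, against 49.8% of all genes called and 29.1% called lower, with a median of -0.57 against -0.06. By role as deposited, 4 of 4 G1 genes, 4 of 4 of the passage to S, 11 of 12 S phase genes, 16 of 17 mitosis genes and 2 of 3 inhibitors were lower. With equal medians these were 4, 2, 9, 10 and 1. In the same endoderm libraries the markers of decidua and blood given above were high. Of these 4 were tested and 3 were higher than in epiblast, but a marker can pass the filter through the endoderm where it is high. In endoderm 11 of 14 libraries of E6.5 embryo 5 and 4 of 14 of E6.5 embryo 6 had under 6000 genes at 1 FPKM, and without all such libraries 38 of 40 members were lower as deposited and 26 of 40 with equal medians. The difference changed from E6.5 to E7.5 in 23 members, against 31.4% of all genes, and with equal medians in 2, against 4.94%.

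Genes of DNA synthesis were among the lowest in endoderm. Pcna was at 21.4, 102 and 152 FPKM in the lowest, median and highest embryo in endoderm, and at 138, 308 and 394 in epiblast. The endoderm was lower in 6 of 6 embryos, and the groups overlapped only at their edges. The difference was -1.82 ± 0.11, with an adjusted p of 1.2e-07 in limma, and -1.12 with equal medians. Rrm2, the regulated subunit of ribonucleotide reductase, was at 11.4, 31.4 and 54.4 FPKM in endoderm and 51.9, 102 and 153 in epiblast, with a difference of -1.80 ± 0.11 (-1.07 with equal medians). The helicase genes Mcm2 and Mcm3 differed by -1.51 each (-0.83 and -0.85), Mcm4 and Mcm6 by -1.45 each, Mcm5 by -1.23 and Mcm7 by -1.24, and all 6 were called on both scales. Tyms, thymidylate synthase, was the exception: its difference was -0.35 ± 0.17 (adjusted p 0.071), and 0.41 with equal medians (adjusted p 0.14).

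G1 and G1 to S genes were also lower. Ccne1, cyclin E1, was at 13.02, 21.8 and 34.9 FPKM in endoderm and 33.0, 68.3 and 82.7 in epiblast, a difference of -1.63 ± 0.11 (-0.94 with equal medians). Ccne2, cyclin E2, differed by -0.50 and by -0.03 with equal medians, where it was not called. Ccnd1 was at 2.85, 7.18 and 15.3 FPKM in endoderm and 10.0, 19.1 and 31.5 in epiblast, a difference of -1.57 ± 0.14 (-1.01 with equal medians). Cdk4 was at 44.0, 165 and 215 FPKM in endoderm and 187, 365 and 458 in epiblast, a difference of -1.42 ± 0.10 (-0.65). Ccnd2 differed by -1.36 ± 0.14 (-1.03) and Cdkn1a by -1.18 ± 0.12 (-0.73). Each of these was lower in endoderm in 6 of 6 embryos.

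The mitosis genes split with the scale. Ccnb1 (-1.55 ± 0.12), Cdc20 (-1.52 ± 0.11), the activator of the anaphase-promoting complex, and Aurkb (-1.50 ± 0.14), a kinase of the chromosomal passenger complex, were lower on both scales, with -0.81, -0.79 and -1.01 with equal medians. Ccnb1 was at 16.1, 46.5 and 64.8 FPKM in endoderm and at 69.1, 115 and 157 in epiblast, with no overlap. Top2a, which untangles DNA, Mki67, the proliferation marker Ki-67, and Birc5 were lower as deposited by 0.76, 0.50 and 0.70 (differences of -0.76, -0.50 and -0.70), all called, but with equal medians their differences were 0.00, 0.21 and 0.07, none called. Mki67 was at 4.17, 10.8 and 18.2 FPKM in endoderm and 6.73, 15.2 and 26.6 in epiblast, which overlapped widely. Cdc25b (-0.35) and Cdkn1b (-0.32), the gene of p27, were called on neither scale, and Cdk6 and Cdkn2c did not pass the filter on low values. Among the further genes, 28 of 29 other S phase genes and 30 of 31 other mitosis genes were lower as deposited, against 66.7% of all genes. With equal medians 21 of 30 and 12 of 31 were lower, against 29.1% of all, and 1 of each was higher. Their medians with equal medians were -0.57 and -0.22.

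**Figure D4:**
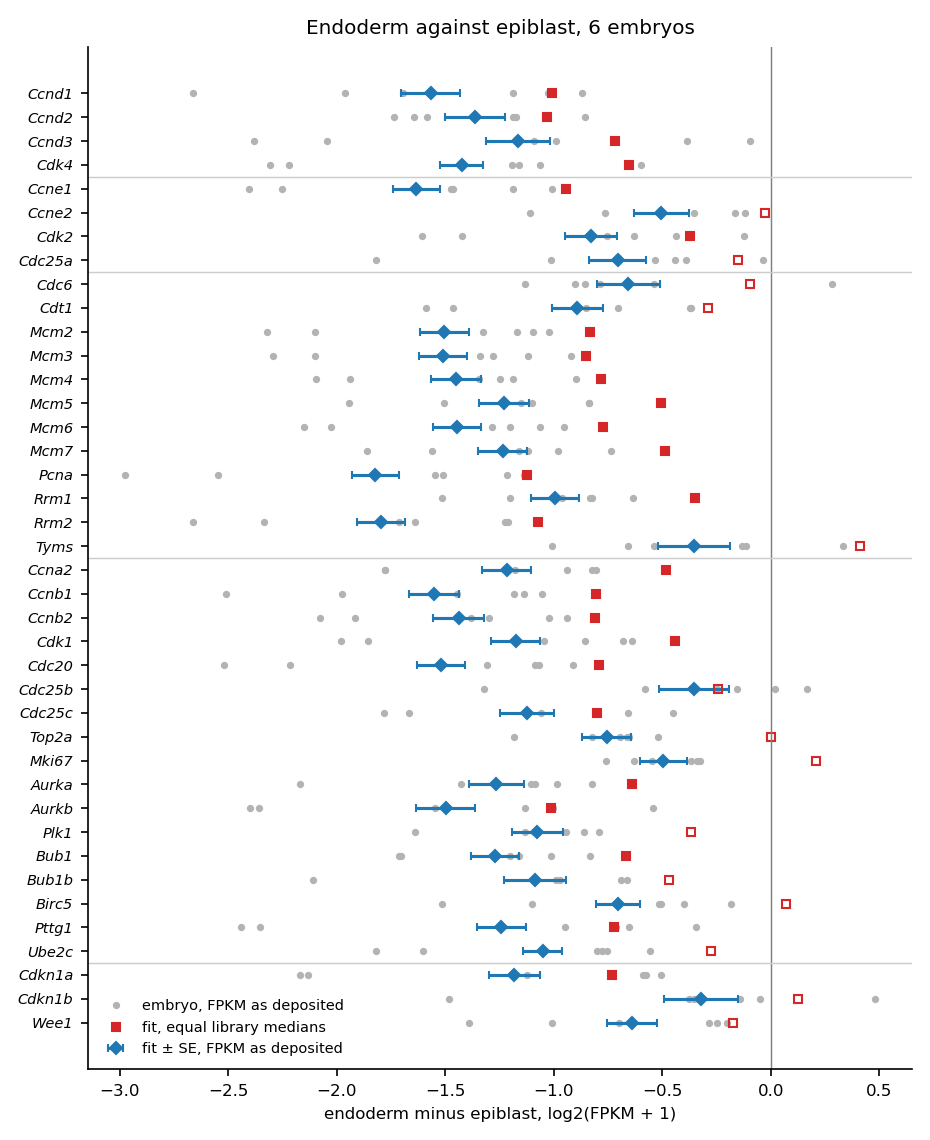
Difference endoderm minus epiblast of log2(FPKM + 1) for the 40 members tested. Grey dots are the 6 embryos, blue points the fit with its SE on deposited FPKM, and red squares the fit with equal medians, filled where the adjusted p is under 0.05. On the deposited scale all 40 lie below 0, from Pcna at -1.82 up to Cdkn1b at -0.32. With equal medians 35 lie below 0, and Top2a, Mki67 and Birc5 lie at or just above it.

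Within the endoderm no member was called between EP and EA. Of 39 members 0 were called in limma, with 2 at an unadjusted p under 0.05, Ccnd3 (0.78) and Cdc25c (0.39), against 1.5% of all genes called. With equal medians 0 were called, with 3 at an unadjusted p under 0.05, against 0.192% of all. Without libraries of under 6000 genes 7 were called, against 14.9% of all genes. The left and right sides gave 0 of 41 calls over 3 embryos, with 2 at an unadjusted p under 0.05, Ccnd3 (-0.63) and Cdkn1a (-0.75), and 1 with equal medians, against 0.0% of all genes as deposited and 0.0% with equal medians.

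In mesoderm, Cdkn1a was much lower than in P. Over 4 embryos at E7.0 and E7.5, Cdkn1a was at 1.83 to 5.21 FPKM in mesoderm, with a median of 3.59, and at 3.94 to 33.0 in P of the same sections, with a median of 18.3. Mesoderm was lower in 4 of 4 embryos, although the ranges overlapped. The difference was -2.08 ± 0.14 (adjusted p 0.00041 in limma) and -1.78 with equal medians. Cdk2 (-0.76 ± 0.10) and Pcna (-0.60 ± 0.06) were also lower in 4 of 4 embryos and called on both scales (-0.48 and -0.23 with equal medians). Ccnd2, in contrast, was at 10.5 to 25.3 FPKM in mesoderm and 8.202 to 38.0 in P. It was lower in 3 of 4 embryos, by 0.48 ± 0.10 (difference of -0.48, adjusted p 0.011), and with equal medians the difference was -0.15 and not called.

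In all, 31 of 41 members were lower in mesoderm and 0 higher, against 43.7% of all genes called and 39.8% called lower, with a median of -0.46 against -0.24 over all genes. With equal medians 3 of 40 were lower, against 13.4% of all genes called and 5.54% called lower, with a median of -0.13 against 0.02. Without E7.5 embryo 5, 16 were lower as deposited, against 18.7% of all genes called. S phase genes had a median of -0.51 and mitosis genes of -0.46 as deposited, and -0.15 and -0.10 with equal medians. Top2a, Birc5 and Ube2c were lower as deposited, but with equal medians their differences were positive, at 0.13, 0.15 and 0.01. Decidua and blood markers summed to 355 to 1195 FPKM in mesoderm and to 42.6 to 963 in P. Their part in the result was not tested.

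Within mesoderm at E7.5, 2 embryos had an anterior (MA) and a posterior (MP) part. Cdkn1a was at 1.28 and 1.67 FPKM in MA of embryos 5 and 6 and at 9.14 and 7.47 in MP. Ccnd2 was at 14.3 and 21.3 FPKM in MA and at 23.5 and 29.3 in MP. Both genes were higher in MP in both embryos, and for Pcna embryo 5 had 173 in MA and 206 in MP while embryo 6 had 285 and 268. These values were not tested.

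Between stages, few members changed in A. With equal medians, the first scale here because the stages differed in library level, 4 of 40 members were higher and 1 was lower at E6.5 than at E5.5 and E6.0, against 15.7% of all genes. As deposited 2 of 41 were higher, against 2.53% of all. Ccnd3, cyclin D3, was at 0.0442 and 1.04 FPKM in A of the 2 embryos at E5.5, at 15.1 and 16.9 at E6.0 and at 13.1 to 42.5 at E6.5, so that the low values were those of E5.5. Its difference was 2.32 ± 0.37 (adjusted p 0.00060 in limma, 2.47 as deposited). Pttg1 rose by 2.05 ± 0.27 (adjusted p 9.9e-05, 2.26 as deposited), and these were the calls on both scales. At E5.5 Pttg1 was low in A but not in P, as given above. Of the 10 A libraries of E5.5, 7 had under 6000 genes at 1 FPKM. Cdc25c (0.94), the mitotic kinase gene Aurka (0.92) and Cdkn1a (-1.36) were called with equal medians only. Leaving out E6.0 embryo 1 left 2 calls, against 9.25% of all genes. The visceral endoderm markers, at 401 to 654 FPKM in A at E5.5 and 145 to 471 at E6.0, summed to 44.4 to 208 at E6.5, and their part was not tested.

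From E6.5 to E7.5 in A, 1 of 40 members changed, against 2.54% of all genes with equal medians, and the same 1 as deposited, against 1.16%. This was Ccnd2, which was at 0.849, 2.80 and 5.06 FPKM in A at E6.5 and at 2.03, 10.2 and 25.9 at E7.5. The ranges overlapped, and the difference was 1.52 ± 0.30 (adjusted p 0.0060 in limma, 1.51 as deposited). Most A libraries of E7.5 came from embryos 1, 2 and 3, since embryos 4, 5 and 6 had 3 each.

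S phase genes were then set against mitosis genes. For each library the mean of log2(FPKM + 1) over the 12 S phase genes and over the 17 mitosis genes was taken, and their difference used as an index, described without a test. The index of A was 0.63 at E5.5, 0.43 at E6.0, 0.27 at E6.5, -0.06 at E7.0 and 0.22 at E7.5, with an SD over embryos of 0.07, 0.01, 0.08, 0.04 and 0.22. Endoderm minus epiblast differed in this index by -0.13 (SD 0.10, n = 6, from -0.27 to 0.02), mesoderm minus P by -0.07 (SD 0.06, n = 4) and P minus A by -0.08 (SD 0.11, n = 16). With equal medians these were -0.08, -0.05 and -0.10. By stage endoderm differed by -0.10 at E6.5, -0.07 at E7.0 (embryos at -0.17 and 0.02) and -0.23 at E7.5. At E6.5 the sign depended on the scale, with 0.02 with equal medians and 0.10 with a pseudocount of 0.1. These values are small beside the differences of the groups themselves, which in endoderm was -1.34 for the median S phase gene and -1.18 for the median mitosis gene.

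Across the libraries of an embryo the 2 means moved together. Pearson's r over the 9 to 52 libraries of an embryo ranged from 0.33 to 0.99, with a median of 0.90 over 18 embryos, on the deposited scale. With equal medians it ranged from -0.25 to 0.83, with a median of 0.55. Libraries of an embryo share its processing, and the deposited values share library level and depth, so r is a description only. In visceral endoderm at E6.0, taken from 1 embryo in 4 libraries and not tested, the S phase mean was 3.44 and the mitosis mean 3.35, against 5.53 and 5.10 in A of embryo 1 and 5.77 and 5.36 in A of embryo 2, the embryo of the visceral endoderm. With equal medians they were 4.68 and 4.46 there, against 5.41 and 5.01 in A of embryo 2. On the deposited scale Pcna was at 41.8 FPKM in visceral endoderm, Ube2c at 110, Ccnd2 at 0.118 and Cdkn1a at 0.236.

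**Figure D5:**
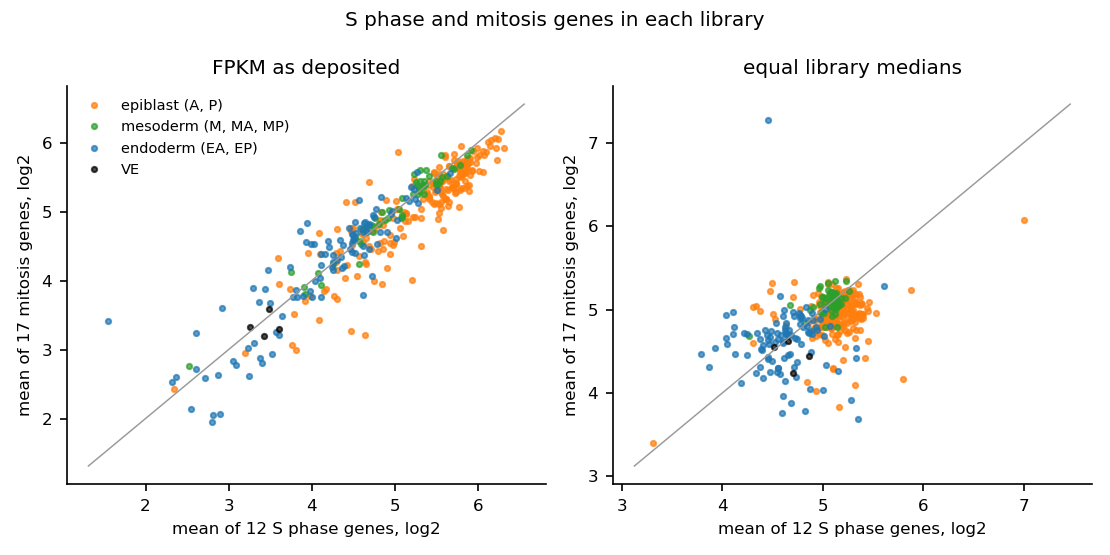
Mean log2(FPKM + 1) of the 12 S phase genes against that of the 17 mitosis genes, 1 point per library, coloured by region (epiblast, mesoderm, endoderm and VE), on deposited FPKM and with equal medians. The diagonal marks equal means. On deposited FPKM the points follow the diagonal over a wide range, with endoderm at the low end, and with equal medians most gather near 5 on both axes, apart from a few stray libraries.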

How the data were processed

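Per the submitters' processing notes, reads were processed with TopHat2 2.0.8b and Cufflinks 2.1.1 on mm10, and the deposited values are FPKM, in 1 table per embryo. Annotation and options: not given in the sources used here. Each column was tied to a sample through its embryo, section and region; 111 columns of values and 113 samples could not be matched and were left out. The table holding E6.5 embryo 6 is named for E6.0, while its samples are labelled E6.5. Depth was estimated from the FPKM worth of 1 read and is rough; no read counts were used.

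Differences of log2(FPKM + 1) between regions of a section were averaged within the embryo; limma 3.58.1 under R 4.3.3 fitted them per stage (trend and robust), with 1 spread for all stages, Benjamini-Hochberg adjustment over all genes tested and a threshold of 0.05. Genes below a mean of 1 FPKM in every stage were not tested. Slopes needed at least 4 sections. Equal medians scale each library's median over genes with a mean of at least 5 FPKM. Pairing rests on the same embryo: deviations of A and P correlated by 0.63 to 0.87 within embryos at E6.5 (at most 0.55 between) and 0.35 to 0.74 at E7.5 (at most 0.03 between). The members, the further lists and the genes named were chosen with earlier results of these data known; genes named are members, in each comparison up to 25 called with the smallest p and for each role the 2 with the largest difference, and up to 3 called of each other list. The procedure was tested on simulated data. Alternatives were equal medians or sums, a pseudocount of 0.1, no filter, libraries of at least 6000 genes, no block, and leaving out 1 embryo; equal medians without libraries of under 6000 genes was chosen after seeing the data. Promoter sequences are RefSeq (GRCm38); no entry was used for Wee1, Ccnd1, Ccnd2, Aurkb, Ccna2, Cdc25c, Ccne2 and Mcm4. Python 3.11.15, numpy 2.4.6, pandas 2.3.3 and matplotlib 3.10.9 made tables and figures.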

Additional observations from a re-analysis of the deposited data

Results flagged for a closer look

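The difference between P and A grew from E6.5 to E7.5 in 3 members, by a limma test of the change itself: Cdkn1a by 2.27 on the log2 scale, Ccnd2 by 1.32 and Pttg1 by 0.77, against 4.03% of all genes called. With equal medians Cdkn1a was called, at 2.25, against 3.35% of all genes, and the other two were not.

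The difference between endoderm and epiblast changed from E6.5 to E7.5 in 23 members, each with 2 embryos per stage. In 22 of them endoderm came closer to the epiblast, and the change was 1.90 in Pttg1, 1.53 in Ccnd3, 1.38 in Pcna, 1.31 in Aurkb, 1.28 in Ccnd1, 1.18 in Cdc20, 1.15 in Cdk1, 1.14 in Cdk4 and 1.03 in Mcm2. It was 0.97 in Wee1, 0.95 in Cdc25a, 0.93 in Ccnb1, 0.92 in Cdk2, Cdt1 and Ube2c, 0.90 in Ccna2, 0.88 in Mcm3 and Ccnb2, 0.86 in Ccne1, 0.85 in Mcm6 and Birc5 and 0.82 in Rrm2. Cdkn1a went the other way, with a change of -1.61. Of all genes 31.4% were called in this change as deposited and 4.94% with equal medians, where Pttg1 (1.57) and Cdkn1a (-1.81) were the members called. In endoderm 11 of 14 libraries of E6.5 embryo 5 and 4 of 14 of E6.5 embryo 6 had under 6000 genes at 1 FPKM, and their part in the change was not tested.

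Among 85 series of 4 to 10 embryos, 1 had an embryo far from the others. The series were those of members already called and share embryos, so this count was not set against chance. The difference between endoderm and epiblast of Bub1b, a kinase of the spindle checkpoint, was -2.11 in E6.5 embryo 6.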

How the results depend on the processing

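Values here are counts of members called, first as reported. Brackets give the share of all genes called in the alternative, which moved too. With equal medians P minus A went from 8 to 10 (16.9%) at E5.5, 1 to 0 (0.431%) at E6.5 and 12 to 7 (9.37%) at E7.5. Mesoderm minus P went from 31 to 3 (13.4%). The slope of P went from 22 to 3 (2.71%), of endoderm from 3 to 1 (10.7%) and of mesoderm from 1 to 0 (0.557%). As deposited A at E6.5 against earlier went from 5 to 2 (2.53%). With equal sums E5.5 gave 4 (9.42%), E7.5 6 (10.1%), mesoderm 16 (16.2%), and the slopes of P and mesoderm 3 (2.38%) and 0 (0.529%). Without a filter the slopes of P, endoderm and mesoderm gave 2 (0.998%), 0 (3.14%) and 0 (0.0%), and A at E6.5 gave 2 (5.4%). With a pseudocount of 0.1 the mesoderm slope gave 0 (0.799%). Without libraries of under 6000 genes P minus A gave 15 at E5.5, 2 at E7.0 and 22 at E7.5, EP minus EA 7, the slope of A 1, A at E6.5 10 and A at E7.5 2; with equal medians as well E5.5 gave 20, mesoderm 9, EP minus EA 5 and the slopes of A and P 1 and 3. E5.5 fitted alone gave 1 (0.539%). Shares of all genes also moved without libraries of under 6000 genes. P minus A had 4.38% at E7.0 and 22.0% at E7.5, against 2.92% and 13.9% as reported. EP minus EA had 14.9%, the slope of A 0.538%, A at E6.5 22.4% and A at E7.5 4.34%. With equal medians as well, mesoderm had 18.9%, EP minus EA 11.7% and the slopes of A and P 0.232% and 2.71%. E5.5 then rested on embryo 2 alone, so no share is given here for its counts.

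Without the paired replicate block, P minus A gave 1 (0.0612%) at E5.5, 0 (0.157%) at E6.5, 0 (0.638%) at E7.0 and 2 (3.37%) at E7.5. Mesoderm gave 1 (1.64%) and endoderm 31 (44.7%). Leaving out 1 embryo gave 0 to 1 at E6.5 (0.297 to 0.57% of all genes) and 7 to 10 at E7.5 (8.77 to 11.2%). P minus A at E5.5, E6.0 and E7.0 would then rest on 1 embryo and is not counted. Endoderm gave 37 to 40 (70.7 to 77.6%), mesoderm 16 to 33 (18.7 to 44.6%), EP minus EA 0 to 2 (0.265 to 6.17%) and R minus L 0 to 1 (0.0293 to 0.875%). The slope of P gave 4 to 29 (6.3 to 31.1%), of A 0 to 2 (0.0319 to 1.35%), of endoderm 1 to 6 (7.5 to 30.1%) and of mesoderm 0 to 28 (1.0 to 48.2%). A at E6.5 gave 2 to 8 (9.25 to 24.2%) and A at E7.5 1 to 2 (1.74 to 4.17%). With 2 embryos per stage the remaining embryo is assumed to vary like those of other stages. Signs turned with equal medians for Top2a (0.0028), Mki67 (0.21) and Birc5 (0.070) in endoderm and Top2a (0.13), Birc5 (0.15) and Ube2c (0.0059) in mesoderm, and with libraries of under 6000 genes left out as well for Mki67 (0.077) in endoderm, Top2a (0.15), Birc5 (0.14) and Ube2c (0.035) in mesoderm and Pttg1 (-0.11) in the endoderm slope. The causes were not tested. The endoderm count stayed within 1.5 times under every alternative run. The index of S phase minus mitosis in endoderm went from -0.13 to -0.08 with equal medians and -0.05 with a pseudocount of 0.1, where the embryos ran from -0.24 to 0.19. Libraries with few genes at 1 FPKM limit the low members most.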

Other observations

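E7.5 embryo 4 had 18 libraries coded E1 or E2 and 18 coded M1 or M2, which entered no comparison. The S phase mean was 3.37 and the mitosis mean 3.02 in E1 and E2, and 3.67 and 3.21 in M1 and M2, against 4.31 and 4.18 in P of the same embryo. With equal medians they were 4.97 and 4.46, 5.29 and 4.72, and 4.90 and 4.75.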
